A study of Homo sapiens with 8 samples.

Results

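The 10 genes described here, ETV1, ETV4, ETV5, DUSP4, DUSP5, DUSP6, SPRY2, SPRY4, SPRED1 and PHLDA1, are read as the transcriptional output and the feedback inhibitors of the RAS-ERK pathway, a mitogen-activated protein kinase (MAPK) cascade. They were taken by symbol from a table of gene-level FPKM values (read fragments scaled by transcript length and by library size), in which all 10 were found among 18902 features. The table holds 8 RNA-seq libraries in 4 groups of 2. MHCC-97H and MHCC-97L are human hepatocellular carcinoma cell lines that share an origin and are named for high and low metastatic potential. The 97H and 97L groups are these lines with no genotype label, called controls below. The 97H_OGT and 97L_OGT groups are labelled as expressing Flag-OGT, the full-length wild-type human O-GlcNAc transferase with a C-terminal Flag tag, from a lentiviral vector that also encodes luciferase, in cells selected with neomycin. All cells were grown in DMEM with fetal calf serum. Whether the controls carried an empty vector, what promoter drove the transgene, and whether each Flag-OGT line was a pool or 1 clone are points the sources used here do not state. The series concerns OGT and the zinc finger protein ZNF263 on chromatin in these lines.

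In this pathway growth factor receptors load RAS with GTP, RAS recruits RAF, and RAF, MEK and ERK pass the signal on by phosphorylation. Active ERK raises the transcription of a small set of genes within hours, among them the PEA3 group of ETS transcription factors (ETV1, ETV4, ETV5) and the pathway's own inhibitors. The DUSP phosphatases remove phosphate from MAP kinases, Sprouty and SPRED proteins block the step from receptor to RAF, and PHLDA1 is a pleckstrin homology-like protein used in expression signatures of pathway output. The mRNA level of these genes is used as a proxy of ERK activity, and in liver cancer cells the pathway is driven mainly through receptors such as EGFR, MET and the FGF receptors. Phosphorylated ERK was not measured here.

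The table gives no counts, so the depth is unknown. FPKM summed to 510448.75 to 613100.66 per library, and 11044 to 11958 genes reached 1 FPKM. OGT itself read 59.04 and 58.38 FPKM with Flag-OGT against 32.53 and 34.16 without in MHCC-97H (0.80 on the log2 scale, limma, adjusted p = 3.0e-07), and 50.95 and 54.54 against 45.73 and 43.9 in MHCC-97L (0.23, adjusted p = 3.4e-03). The median change of all tested genes was 0.15 and 0.19. In MHCC-97L the OGT change was thus close to that of the median gene, and it was not called after rescaling to a common sum (0.11, adjusted p = 0.0985) or median-of-ratios scaling (0.02, adjusted p = 0.685), whereas in MHCC-97H it was called with both (0.74 and 0.60). The reads of the introduced and the endogenous gene were not separated, so OGT is a weak check of the labels in MHCC-97L. The libraries labelled Flag-OGT stood apart from the controls in their cell type markers. The 15 hepatocyte markers summed to 164 to 178 FPKM in the MHCC-97H controls and 334 to 346 in the MHCC-97L controls, with 9 and 13 of them at 1 FPKM or more, but to 11.7 to 16.6 FPKM with Flag-OGT, where 1 to 3 reached 1 FPKM and TTR was listed at 0 in all 4 libraries. HNF4A, a transcription factor that defines hepatocytes, was between 13.4 and 14.63 FPKM in every control and between 0.01 and 0.04 in every Flag-OGT library. The 6 epithelial markers summed to 5677 to 6621 FPKM in controls and 19.2 to 29.9 with Flag-OGT. The 8 fibroblast markers summed to 4.65 to 12.2 FPKM in controls and 14.6 to 20.9 with Flag-OGT. COL1A2 was at 0 in every Flag-OGT library and in both MHCC-97H controls. Of the 3 tested, ACTA2 and COL1A1 were called higher with Flag-OGT in both lines and LUM lower. Mean ACTA2 with Flag-OGT was 15.6 (MHCC-97H) and 8.81 (MHCC-97L), against control means of 0 and 0.08. For COL1A1 these means were 3.95 and 6.04, against 0.045 and 0.165. For LUM they were 0.035 and 0.04, against 10 and 4.48. The 8 leukocyte markers went from 82.4 to 85.6 FPKM down to 3.46 to 9.14, mostly CD68 in the controls. Of the 4 tested, CD68, ITGAM and CD79A were called lower in both lines, and LYZ was called higher in MHCC-97L. The 7 endothelial markers went from 33.6 to 46.7 down to 0.87 to 2 FPKM, mostly ESAM in the controls. ESAM, PECAM1 and KDR, the 3 tested, were called lower in both lines. CDH5 and TEK were at 0 in every Flag-OGT library, but at 0.06 FPKM or less in every control. EMCN, not tested, had means of 0.165 (MHCC-97H) and 0.38 (MHCC-97L) with Flag-OGT, against 0.055 and 0.3. KRT8, a keratin of simple epithelia, was between 3735.01 and 4140.38 FPKM in every control and between 5.62 and 12.03 in every Flag-OGT library. Most defining markers of liver cells were at or near 0 in the Flag-OGT libraries, and Flag-OGT and this loss cannot be told apart in this design. Whether the Flag-OGT libraries come from the same cell lines as the controls was not tested. A rise or fall with Flag-OGT below therefore means a difference between libraries so labelled and controls, and may not be a change within a line. Each comparison of Flag-OGT with controls below rests on these libraries, and only the comparison of the 2 control groups can be given without them. The part of these shifts in the results was not tested. In bulk RNA a smaller number of cells of a type and less RNA per cell give the same reading.

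Promoter windows in RefSeq (GRCh38.p14, 250 bases before to 50 after a transcription start) were listed for 6 of the 10 genes. Those of DUSP6 and SPRY4, of which 0.253% to 0.582% of the control mean was left with Flag-OGT, are shown first. Beside them are one of SPRY2, which kept the largest share of its control mean, and one of ETV1. The latter holds the only match to either searched form of the CIC octamer, and other forms were not searched for. CIC is a repressor of the PEA3 genes that ERK signalling relieves. Capitals mark GGAA, the core of ETS factor sites, on either strand (TTCC), and the octamer in ETV1. The windows lie at chr12:89352452-89352751 (DUSP6), chr5:142324198-142324497 (SPRY4), chr13:80341077-80341376 (SPRY2, 1 of 3 listed) and chr7:13991376-13991675 (ETV1, 1 of 6 listed), all on the minus strand, and are written 5′ to 3′.
DUSP6: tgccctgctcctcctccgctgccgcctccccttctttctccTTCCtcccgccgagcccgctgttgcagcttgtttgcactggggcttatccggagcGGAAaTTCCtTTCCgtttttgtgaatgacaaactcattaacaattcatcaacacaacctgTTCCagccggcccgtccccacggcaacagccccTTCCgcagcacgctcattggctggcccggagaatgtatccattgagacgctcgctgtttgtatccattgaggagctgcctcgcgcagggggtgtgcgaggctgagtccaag
SPRY4: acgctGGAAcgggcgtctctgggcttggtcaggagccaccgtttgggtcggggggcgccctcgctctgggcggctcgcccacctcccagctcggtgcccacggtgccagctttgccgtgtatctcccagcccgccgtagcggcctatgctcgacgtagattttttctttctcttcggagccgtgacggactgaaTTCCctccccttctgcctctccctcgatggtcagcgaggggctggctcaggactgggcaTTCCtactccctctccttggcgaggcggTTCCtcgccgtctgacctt
SPRY2: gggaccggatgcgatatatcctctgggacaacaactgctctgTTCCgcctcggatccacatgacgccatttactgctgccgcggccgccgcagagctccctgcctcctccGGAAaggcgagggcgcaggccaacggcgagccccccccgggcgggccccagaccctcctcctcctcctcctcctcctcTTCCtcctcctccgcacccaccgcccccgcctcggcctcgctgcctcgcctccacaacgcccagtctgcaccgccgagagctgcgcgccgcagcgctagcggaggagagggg
ETV1: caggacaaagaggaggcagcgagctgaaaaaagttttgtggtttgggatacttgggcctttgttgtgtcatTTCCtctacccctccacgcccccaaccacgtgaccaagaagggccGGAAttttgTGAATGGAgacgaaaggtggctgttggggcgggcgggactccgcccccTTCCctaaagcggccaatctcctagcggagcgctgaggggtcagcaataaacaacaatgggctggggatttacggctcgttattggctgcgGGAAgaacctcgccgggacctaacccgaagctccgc

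The GGAA core occurred 6 times in the DUSP6 window, 4 times in that of SPRY4, 3 times in that of SPRY2 and 4 times in that of ETV1, against a median of 3 per window over 34943 RefSeq windows of the same length, 95.4% of which held at least 1. All 13 windows of the 6 genes were searched on both strands for further motifs. A CIC octamer in either of the forms searched, TGAATGAA or TGAATGGA, stood in 1 window (ETV1, at -125 from the start) and in 2.61% of all windows. Other forms of the octamer were not searched for or marked. The AP-1 motif TGANTCA (7.72% of all windows), the CRE TGACGTCA (1.84%), the extended ETS motif CCGGAAG (10.2%, which contains the core), the CArG box of the serum response factor (1.3%) and the TATA box TATAAA (11.6%) had no match in any of the 13 windows. The windows shown held 57.3% to 71% G and C, against a median of 58.7%. These are letter matches in short windows only.

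All 10 genes were lower in the Flag-OGT libraries of both lines, and within each line the libraries of the 2 states did not overlap for any of them. How many of all tested genes also lacked such overlap was not counted. With only 2 libraries a group, this separation is not read as particular to the 10. Genes were tested with limma on log2(FPKM + 1) values where their mean FPKM over all libraries was at least 0.5, which left 13553 genes, and a gene was called at a Benjamini-Hochberg adjusted p under 0.05 over all of these. In MHCC-97H 10 of the 10 were called lower and 0 higher, where 36.3% of all tested genes were called lower and 48.2% higher. In MHCC-97L it was again 10 lower and 0 higher, against 34.7% and 50.1%. A fall of at least 1 on the log2 scale was reached by 9 of the 10 in MHCC-97H (all but SPRY2), where 16.0% of all genes reached it, and by 8 in MHCC-97L (all but SPRY2 and ETV1), where 16.1% did. The median change of the 10 was -4.08 in MHCC-97H and -3.38 in MHCC-97L on the log2 scale, beside 0.15 and 0.19 over all tested genes. All 10 passed the filter, ETV1 with a mean of only 0.667 FPKM. Of these, ETV1, ETV4, ETV5, DUSP6 and SPRY4 (5 genes) were under 0.5 FPKM in every Flag-OGT library and passed through the controls alone, so the counts describe the set. Summed over the 10 genes, the level was 292.72 to 299.82 FPKM in the MHCC-97H controls, 238.58 to 238.9 in the MHCC-97L controls, and 6 to 7.78 FPKM in the Flag-OGT libraries.

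**Figure D1:**
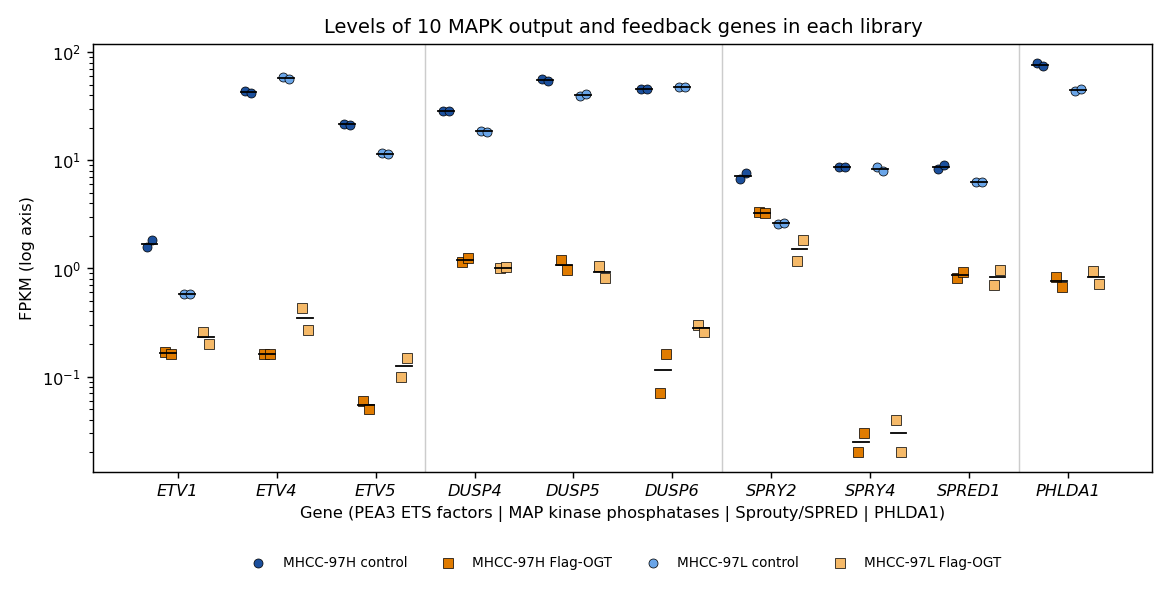
FPKM (log axis) of the 10 genes in each of the 8 libraries; circles are control and squares Flag-OGT libraries, dark for MHCC-97H and light for MHCC-97L, and bars mark the mean of 2 libraries. Control libraries lie above Flag-OGT libraries of the same line for every gene, with ratios of means from 395 (DUSP6, MHCC-97H) to 1.73 (SPRY2, MHCC-97L).

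Of the PEA3 factors ETV4 and ETV5 fell to under 0.5 FPKM from levels above 10 FPKM, and ETV1 fell from a low level. ETV4, a driver of invasion programmes in several carcinomas, read 43.74 and 41.93 FPKM in MHCC-97H controls against 0.16 in each Flag-OGT library of that line. The log2 change was -5.24 ± 0.07 (SE, limma, adjusted p = 3.2e-12), and the ratio of means was 268, with 262 to 273 between the closest and the farthest libraries. In MHCC-97L its 2 controls read 58.84 and 55.99 FPKM and its 2 Flag-OGT libraries 0.43 and 0.27, a log2 change of -5.44 ± 0.07 (adjusted p = 2.7e-12). The 4 groups kept apart in the order 97L, 97H, 97L_OGT, 97H_OGT, and ETV4 was the highest PEA3 factor in each control library.

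ETV5, its close relative, fell from 21.72 and 21.35 FPKM to 0.06 and 0.05 in MHCC-97H. In MHCC-97L it fell from 11.59 and 11.34 FPKM to 0.1 and 0.15. The order was 97H, 97L, 97L_OGT, 97H_OGT without overlap, the lines changing places between the states, although the Flag-OGT groups did not differ past the threshold (-0.09, adjusted p = 0.238). The log2 changes were -4.42 ± 0.07 (adjusted p = 3.9e-12) and -3.47 ± 0.07 (adjusted p = 1.9e-11), with 0.255% and 1.09% of the control mean left.

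ETV1, the third PEA3 factor and the least expressed of the 10 in the controls, went from 1.57 and 1.82 FPKM to 0.17 and 0.16 in MHCC-97H. In MHCC-97L it went from 0.58 FPKM in each control to 0.26 and 0.2. It kept 9.73% of its control mean in MHCC-97H and 39.7% in MHCC-97L, so its loss was shallower than those of ETV4 and ETV5. The log2 changes were -1.21 ± 0.07 (adjusted p = 7.8e-08) and -0.36 ± 0.07 (adjusted p = 9.0e-04).

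The dual-specificity phosphatases fell to about 1 FPKM or less. DUSP6, the cytoplasmic phosphatase selective for ERK and a standard readout of the pathway, had near-equal control levels, 45.32 and 45.59 FPKM in MHCC-97H and 48.09 and 48.15 in MHCC-97L. The Flag-OGT libraries held 0.07 and 0.16 FPKM of it in MHCC-97H and 0.3 and 0.26 in MHCC-97L. Control means were 395 times (283 to 651 between libraries) and 172 times (160 to 185) the Flag-OGT means, the first of these the largest ratio among the 10 genes. The log2 changes were -5.38 ± 0.07 (adjusted p = 1.7e-12) and -5.26 ± 0.07 (adjusted p = 1.8e-12). No pair of groups overlapped. Reads of the POC1B-DUSP6 readthrough that RefSeq lists could be counted to DUSP6.

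DUSP5, a nuclear phosphatase selective for ERK, was the highest of the 3 in MHCC-97H controls. It fell there from 56.36 and 54.16 FPKM to 1.19 and 0.96, and in MHCC-97L from 39.67 and 41.04 FPKM to 1.05 and 0.82, so that the Flag-OGT groups overlapped. The log2 changes were -4.76 ± 0.08 (adjusted p = 7.7e-12) and -4.42 ± 0.08 (adjusted p = 1.5e-11). DUSP4, a nuclear phosphatase that also acts on other MAP kinases, went from 28.57 and 28.37 to 1.15 and 1.24 FPKM in MHCC-97H and from 18.81 and 18.46 to 1 and 1.03 FPKM in MHCC-97L. The 4 groups did not overlap, 4.2% and 5.45% of the control mean was left, and the log2 changes were -3.75 ± 0.06 (adjusted p = 7.1e-12) and -3.28 ± 0.06 (adjusted p = 1.9e-11).

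Of the Sprouty and SPRED inhibitors SPRY4 was nearly lost, SPRED1 fell 9.91-fold and 7.54-fold and SPRY2 2.18-fold and 1.73-fold in MHCC-97H and MHCC-97L. SPRY4, which blocks RAS activation downstream of receptors, had overlapping control groups, with 8.73 and 8.64 FPKM in MHCC-97H and 8.65 and 8.04 in MHCC-97L. The Flag-OGT groups, at 0.02 and 0.03 FPKM in MHCC-97H and 0.04 and 0.02 in MHCC-97L, overlapped too. These last values are a few steps of the 2 decimals in the table, so the ratios of means, 347 and 278, are coarse. The log2 changes were -3.24 ± 0.07 (adjusted p = 3.1e-11) and -3.18 ± 0.07 (adjusted p = 4.1e-11). They were -6.14 and -6.02 when 0.1 in place of 1 was added to the FPKM.

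SPRED1, which carries neurofibromin to the membrane to switch RAS off, fell from 8.23 and 9.11 FPKM to 0.82 and 0.93 in MHCC-97H. In MHCC-97L it fell from 6.3 and 6.29 FPKM to 0.7 and 0.97, and the Flag-OGT groups of the lines overlapped. Its log2 changes were -2.37 ± 0.09 (adjusted p = 2.0e-09) and -2.00 ± 0.09 (adjusted p = 8.6e-09). SPRY2, a Sprouty that binds receptor adaptors and the ubiquitin ligase CBL, had the smallest ratio of the 10 in both lines. It fell in MHCC-97H from 6.77 and 7.58 FPKM to 3.3 and 3.27, a log2 change of -0.93 ± 0.11 (adjusted p = 2.5e-05).

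In MHCC-97L SPRY2 fell from 2.58 and 2.64 FPKM to 1.17 and 1.84, a log2 change of -0.54 ± 0.11 (adjusted p = 1.3e-03). This value moved to -0.35 when the first 97L_OGT library, the lower of the 2, was left out, and was still called. SPRY2 was the only one of the 10 for which the order of the groups followed the line, with 97H, 97H_OGT, 97L and 97L_OGT from high to low and no overlap. It was at 3.27 FPKM or more in MHCC-97H with Flag-OGT, above both MHCC-97L controls. With Flag-OGT it was also the highest of the 10 genes in all 4 libraries.

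PHLDA1 had the highest level of the 10 in the MHCC-97H controls, 78.81 and 74.17 FPKM, and fell there to 0.84 and 0.68. In MHCC-97L it fell from 43.79 and 46.05 FPKM to 0.95 and 0.72, and the Flag-OGT groups overlapped. The log2 changes were -5.46 ± 0.08 (adjusted p = 3.8e-12), the deepest of the 10 in MHCC-97H on the log2(FPKM + 1) scale, and -4.65 ± 0.08 (adjusted p = 1.1e-11). With a pseudocount of 0.1 PHLDA1 was at -6.48 in MHCC-97H, less deep than DUSP6 (-7.76), ETV4 (-7.37) and ETV5 (-7.13). The ranks that follow depend on the added 1 in the same way. Ranked from the lowest change over all 13553 tested genes, PHLDA1 stood at 91, DUSP6 at 95 and ETV4 at 101 in MHCC-97H, and ETV4 at 114, DUSP6 at 127 and PHLDA1 at 191 in MHCC-97L. At the other end ETV1 stood at 1747 and 3948 and SPRY2 at 2341 and 3320. RefSeq lists antisense transcripts for ETV5, SPRY4 and PHLDA1, whose reads cannot be told apart from those of the genes without strand, and the sources used here do not state the strand setting.

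**Figure D2:**
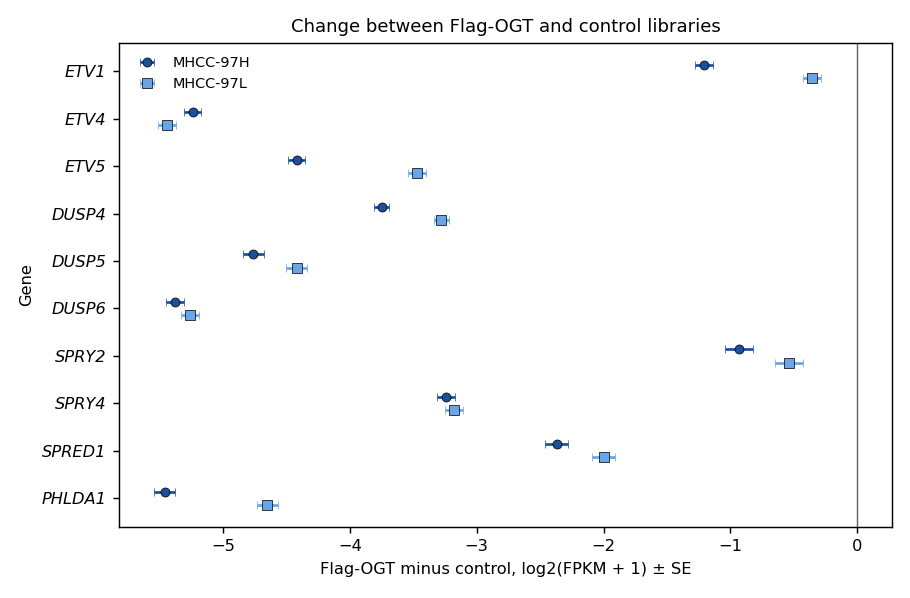
Change between Flag-OGT and control libraries on the log2(FPKM + 1) scale with its SE, for MHCC-97H (circles) and MHCC-97L (squares). All points lie below 0, from -5.46 (PHLDA1, MHCC-97H) to -0.36 (ETV1, MHCC-97L).

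The libraries and the scale set limits to these values. With 2 libraries a group, not stated to come from separate cultures, the p-values reflect variation among these libraries alone, possibly technical, and adding 1 to the FPKM understates the change of low genes such as ETV1, whose changes were -2.76 and -1.05 with a pseudocount of 0.1. Median-of-ratios scaling moved the median of all tested genes from 0.15 to -0.01 in MHCC-97H and from 0.19 to 0.02 in MHCC-97L, and left all 10 genes called lower in both lines.

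The falls were deeper in MHCC-97H than in MHCC-97L for most of the genes. The test of the difference between the 2 changes called 6 of the 10 as more negative in MHCC-97H and 0 as less negative, beside 29.4% and 33.9% of all tested genes. ETV5 differed by -0.95 ± 0.09 on the log2 scale (limma, adjusted p = 1.9e-05), ETV1 by -0.85 ± 0.10 (adjusted p = 7.2e-05), PHLDA1 by -0.81 ± 0.12 (adjusted p = 2.0e-04) and DUSP4 by -0.46 ± 0.09 (adjusted p = 1.3e-03). DUSP5 (-0.34 ± 0.11, adjusted p = 0.025) and SPRED1 (-0.37 ± 0.12, adjusted p = 0.0255) were close to the threshold. Leaving out single libraries ended the call of DUSP5 in 4 of 8 cases (97H replicate 1, 97H_OGT replicate 2, 97L replicate 1 and 97L_OGT replicate 1, with changes of -0.26 to -0.32) and that of SPRED1 in 5 of 8 (97H replicate 2, 97H_OGT replicate 1, both 97L libraries and 97L_OGT replicate 2, with changes of -0.26 to -0.37). ETV4 (0.20, adjusted p = 0.127), DUSP6 (-0.12, adjusted p = 0.29), SPRY2 (-0.39, adjusted p = 0.0585) and SPRY4 (-0.06, adjusted p = 0.611) were not called. Without the first 97L_OGT library ETV4 was called (0.28, adjusted p = 0.0335) and SPRY2 was called (-0.58, adjusted p = 3.1e-03), whereas SPRY2 was at -0.20 (adjusted p = 0.167) without the second. The sign of the ETV4 difference flipped with a pseudocount of 0.1 (-0.35, adjusted p = 0.193). With that pseudocount the difference was -0.77 for DUSP6, -0.31 for SPRY2 and -0.11 for SPRY4, so the size of the DUSP6 difference depends on the pseudocount.

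The 2 lines were also compared within each state. Among the controls, 7 of the 10 were higher in MHCC-97H and 1 was lower, beside 26.5% and 38.9% of all tested genes. With median-of-ratios scaling the split over all genes turned to 4948 higher and 4090 lower (3589 and 5270 without rescaling), and the count of the 10 was again 7 and 1. SPRY2 differed most, by 1.18 ± 0.11 on the log2 scale (limma, adjusted p = 1.4e-05, ratio of means 2.75), then ETV5 by 0.85 ± 0.07 (adjusted p = 2.9e-06, ratio 1.88), ETV1 by 0.77 ± 0.07 (adjusted p = 1.1e-05) and PHLDA1 by 0.75 ± 0.08 (adjusted p = 2.7e-05). DUSP4, DUSP5 and SPRED1 were higher by 0.41 to 0.59. ETV4 was the one gene lower in MHCC-97H, by -0.41 ± 0.07 (adjusted p = 8.1e-04, ratio of means 0.746). DUSP6 (-0.08, adjusted p = 0.316) and SPRY4 (0.05, adjusted p = 0.527) were not called; the sign of DUSP6 flipped with rescaling to a common sum (0.05) and with median-of-ratios factors (0.07), the latter of which called SPRY4 higher (0.19, adjusted p = 0.0245). A fit of the control libraries alone, without any Flag-OGT library, gave the same counts of 7 and 1.

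Between the Flag-OGT libraries 1 of the 10 was higher in MHCC-97H and 2 were lower, beside 33.6% and 36.1% of all genes. SPRY2 was higher by 0.79 ± 0.11 (limma, adjusted p = 1.7e-04, ratio of means 2.18). ETV4 (-0.22 ± 0.07, adjusted p = 0.0255) and DUSP6 (-0.20 ± 0.07, adjusted p = 0.022) were lower, and neither was called after quantile normalization or after rescaling to a common sum, which turned the split over all genes from 4551 higher and 4894 lower to 5934 and 3526 (5668 and 3733 with median-of-ratios scaling). The call of ETV4 was also lost without 97H_OGT replicate 1, 97H_OGT replicate 2 or 97L_OGT replicate 1 (-0.13 to -0.22), and that of DUSP6 without 97H_OGT replicate 1 (-0.14) or 97L_OGT replicate 1 (-0.18). The other 7 genes differed by -0.09 to 0.12 and were not called. These comparisons share libraries with the changes above, so the larger falls of ETV1, ETV5, DUSP4, DUSP5, SPRED1 and PHLDA1 in MHCC-97H and their higher control levels there are not separate results.

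**Figure D3:**
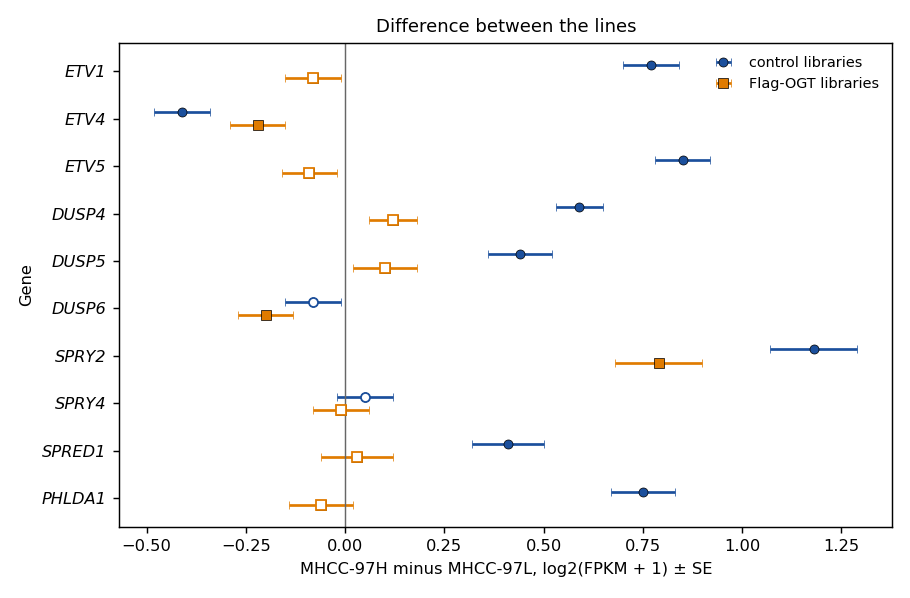
MHCC-97H minus MHCC-97L on the log2(FPKM + 1) scale with its SE, among control libraries (circles) and among Flag-OGT libraries (squares); open symbols were not called. In the controls 7 called genes lie above 0 and ETV4 below, while with Flag-OGT all but SPRY2 lie within 0.22 of 0.

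The members resembled one another to different degrees. Likeness was measured as the root mean square difference of log2(FPKM + 1) profiles over the 8 libraries, each centred on its own mean, as a description with no test. ETV4 and DUSP6 were the closest pair (0.13), followed by ETV5 with DUSP4 and DUSP4 with SPRY4 (0.25 each) and DUSP5 with PHLDA1 (0.26). ETV1 and SPRY2, the genes with the smallest changes, were 0.36 apart and both were 1.24 or more from every other gene of the set except SPRED1 (0.71 and 0.82). The widest distance was that of ETV4 and SPRY2 (2.40).

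Over all tested genes, those most like each member by this measure were of many kinds. The nearest to ETV4 were CDH17 (0.08), an intestinal cadherin, and LAD1 (0.11). DUSP6 lay nearest SLC17A9 (0.09) and PRSS3 (0.10), and DUSP5 nearest FOXA2 (0.08), a liver transcription factor, and OAS3 (0.10). ETV5 lay nearest UGT2B7 (0.10), a liver glucuronosyltransferase, and CD22 (0.13), while DUSP4 lay nearest STK32B (0.05) and EPHB6 (0.07). SPRY4 was nearest to MLKL (0.04) and SYT13 (0.07), and PHLDA1 to ICAM1 (0.09) and MAGEA3 (0.13). The genes with smaller changes had neighbours that stayed expressed, TRIM8 (0.07) and ASAH2B (0.08) for ETV1, SOAT1 and MCFD2 (0.10 each) for SPRY2, and CTSC (0.06) and KITLG (0.08) for SPRED1. CTSC, a lysosomal protease, had means of 122 FPKM (control) and 23.4 FPKM (Flag-OGT) in MHCC-97H and of 100 and 21.8 FPKM in MHCC-97L.

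Other genes of the pathway were read from 7 lists, against the 48.2% and 36.3% of all tested genes called higher and lower in MHCC-97H and the 50.1% and 34.7% in MHCC-97L. Among 14 relatives of the members, 13 of them tested, 6 rose and 5 fell in MHCC-97H (median 0.08 on the log2 scale), and 5 rose and 7 fell in MHCC-97L (median -0.53). Median-of-ratios scaling gave 4 and 6 in MHCC-97H (median -0.11). PHLDA2, a paralogue of PHLDA1 from an imprinted locus, fell from 264.69 and 198.93 to 4.62 and 5.72 FPKM in MHCC-97H (-5.23 ± 0.13, limma, adjusted p = 8.9e-11) and by 5.77 in MHCC-97L. PHLDA3, a p53 target that inhibits AKT, rose from 0.13 and 0.23 to 30.49 and 32.34 FPKM in MHCC-97H (4.78 ± 0.08, adjusted p = 7.5e-12) and by 1.58 in MHCC-97L. DUSP2, a nuclear phosphatase of activated lymphocytes, fell by 1.97 and 2.31. DUSP16, which acts on JNK and p38, rose in MHCC-97H (0.33, adjusted p = 3.9e-03) and fell in MHCC-97L (-0.63, adjusted p = 4.1e-05), but its rise was not called with median-of-ratios scaling (0.15, adjusted p = 0.0984).

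The 20 cascade components, from adaptors to ERK, were all tested. In MHCC-97H 9 rose and 8 fell (median 0.02) and in MHCC-97L 6 rose and 9 fell (median -0.09), and with median-of-ratios scaling the MHCC-97H counts were 8 and 10 (median -0.17). MAPK3, which encodes one of the ERK kinases, rose from 20.16 and 17.82 to 168.19 and 170.86 FPKM in MHCC-97H (3.10 ± 0.07, limma, adjusted p = 3.6e-11) and from 35.48 and 35.63 to 105.12 and 96.85 FPKM in MHCC-97L (1.48). The adaptor gene SHC1 fell from 237.12 and 237.21 to 27.19 and 29.56 FPKM in MHCC-97H (-3.02) and by 2.46 in MHCC-97L, and GRB2 fell by 1.17 and 1.68. GAB1, an adaptor that docks SHP2, rose in MHCC-97H (0.38) and fell in MHCC-97L (-0.23), but the rise was not called after quantile normalization (0.07, adjusted p = 0.401), nor the fall without 97L replicate 1, 97L_OGT replicate 1 or 97L_OGT replicate 2 (-0.17 to -0.25).

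Of 10 RAS GTPase-activating proteins and other inhibitors, 3 rose and 4 fell in MHCC-97H (median 0.01) and 5 rose and 4 fell in MHCC-97L (median 0.08; 3 and 5 with median-of-ratios scaling, median -0.08). ERRFI1, an ERK-induced inhibitor of EGFR, fell from 119.74 and 131.86 to 5.33 and 4.71 FPKM in MHCC-97H (-4.40 ± 0.07, limma, adjusted p = 5.5e-12) and by 3.91 in MHCC-97L. LZTR1, an adaptor for the degradation of RAS proteins, rose by 2.06 and 1.60. DAB2IP, a RAS GTPase-activating protein, rose by 1.48 in MHCC-97H and fell by 0.31 in MHCC-97L. RASAL2, another, fell by 0.26 in MHCC-97H and rose by 0.25 in MHCC-97L, where it was not called with median-of-ratios scaling (0.11, adjusted p = 0.136). The 7 regulators of the PEA3 factors had 2 rises and 2 falls in MHCC-97H (median 0.10) and 2 rises and 4 falls in MHCC-97L (median -0.40). The repressors ETV3 and ERF fell in MHCC-97L by 0.92 each, ETV3 fell by 0.33 in MHCC-97H (not called without 97H replicate 2, -0.21, or 97H_OGT replicate 2, -0.30), and ERF was at 37.74 and 36.48 FPKM there without and 39.91 in each library with Flag-OGT (0.10, adjusted p = 0.195). DET1, part of the ligase that degrades ETV proteins, rose by 1.16 and 0.33, the latter not called with median-of-ratios scaling (0.15, adjusted p = 0.0723), and ATXN1L, the partner of CIC, by 0.56 and 0.39.

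Upstream, 14 ligand genes were listed and 9 tested, with 2 rises and 6 falls in each line (medians -0.82 and -0.78). In MHCC-97H 1 of the 2 rises, that of FGF2 (0.17, limma, adjusted p = 0.0496), was at the threshold. The count was 1 rise with a pseudocount of 0.1, with each of the 3 scalings, with a replicate block, in the fit of the compared groups alone and without any 1 of the 97H, 97H_OGT or 97L libraries. FGF2, a ligand of FGF receptors, is named here after its value was seen. EREG, a ligand of EGFR, fell from 22.94 and 26.78 to 0.05 and 0.16 FPKM in MHCC-97H. AREG, another EGFR ligand, fell from 10.13 and 9.67 to 0.04 FPKM in each library, and NRG1, a ligand of ERBB3, from 13.41 and 15.44 to 0.1 FPKM in each. In MHCC-97L the log2 changes of EREG, AREG and NRG1 were -2.15, -2.55 and -3.35 (limma, adjusted p = 1.5e-08, 3.2e-10 and 8.7e-11). Of 14 receptor genes 11 were tested, and 7 rose and 4 fell in MHCC-97H (median 0.57) and 6 rose and 5 fell in MHCC-97L (median 0.36). MET, the receptor of hepatocyte growth factor, fell from 815.22 and 896.93 to 5.92 and 5.61 FPKM in MHCC-97H, while FGFR1 rose from 0.65 and 0.78 to 35.14 and 36.88 FPKM. The insulin receptor gene INSR rose by 0.50 in MHCC-97H and fell by 0.21 in MHCC-97L (adjusted p = 0.0277), a call lost without 97L replicate 1 (-0.12), 97L_OGT replicate 1 (-0.19) or 97L_OGT replicate 2 (-0.23).

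Other genes listed as transcription factors or targets of ERK fell more often than they rose. The list holds transcription factors such as ELK1, ELK4 and SRF beside target genes, so its counts are not of ERK-induced transcripts alone. Of 20 listed and 19 tested, 5 rose and 13 fell in MHCC-97H (median -0.93) and 3 rose and 15 fell in MHCC-97L (median -1.55). FOSL1, an AP-1 subunit stabilised by ERK, fell from 196.34 and 183.68 to 0.65 and 0.77 FPKM in MHCC-97H (-6.80 ± 0.09, limma, adjusted p = 2.6e-12) and by 5.77 in MHCC-97L. EGR1, an immediate early transcription factor, fell by 3.25 and 3.81. JUN, an AP-1 subunit, and MYC, a growth regulator, rose in MHCC-97H (1.22 and 1.49) and fell in MHCC-97L (-0.51 and -0.47). MYC was at 36.44 and 35.08 FPKM without and 101.67 and 102.77 FPKM with Flag-OGT in MHCC-97H.

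**Figure D4:**
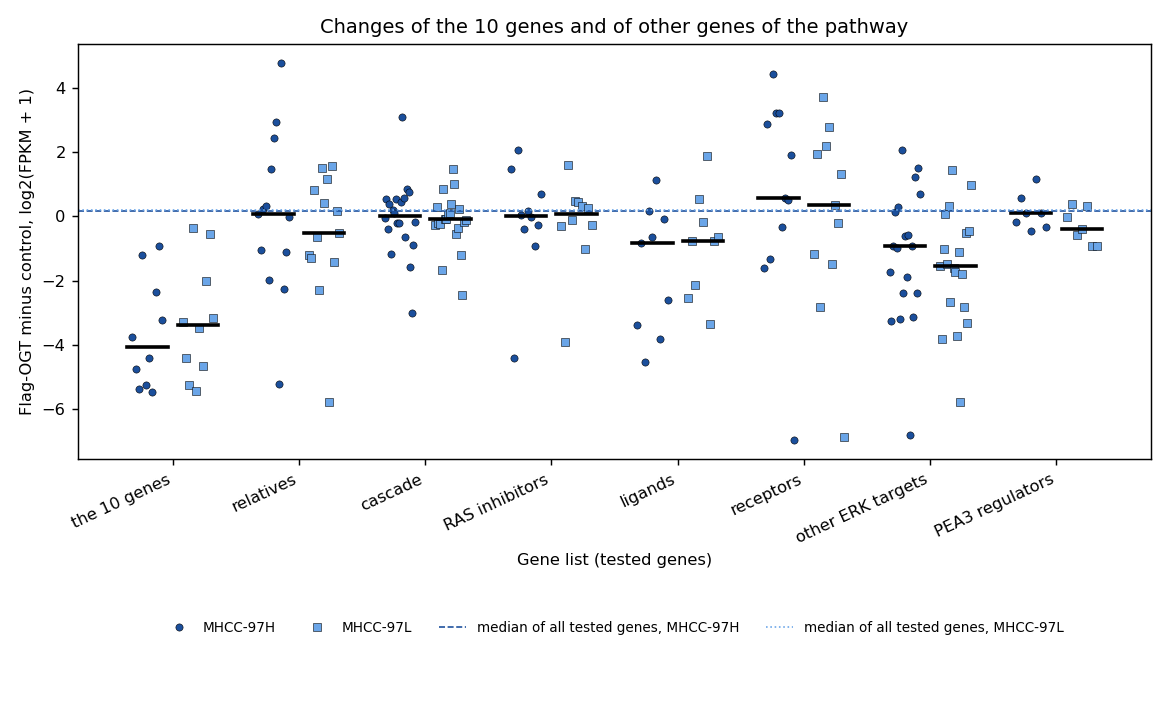
Log2 change between Flag-OGT and control libraries for each tested gene of the 10 members and 7 further lists, in MHCC-97H (circles) and MHCC-97L (squares); bars are list medians and the broken lines the medians of all tested genes. The 10 genes lie wholly below 0, with medians of -4.08 and -3.38, whereas the cascade centres near 0 (0.02 and -0.09) and the receptors above it (0.57 and 0.36).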

How the data were processed

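RNA-seq libraries were made from total RNA with a SMARTer cDNA kit, per the labels' protocols. The deposited table gives FPKM per gene symbol to 2 decimals. HISAT2 2.1.0, RSEM 1.2.4, DESeq2 1.18.1, Bowtie2 and the build hg19 are named in the submitters' processing notes, without saying which of them the authors used to make the FPKM values. Libraries were assigned to groups by their cell line and genotype labels. Of 18928 features 26 whose symbols had become dates were left out, and 55 whose symbols are numbers were kept. log2(FPKM + 1) values of the 13553 genes with a mean of at least 0.5 FPKM were fitted over all 4 groups with limma 3.58.1 (R 4.3.3; empirical Bayes with trend, 4 residual degrees of freedom), and p-values were Benjamini-Hochberg adjusted over all of them. The fit was tested on simulated data in which few genes changed and the noise was independent. The libraries here differ from that setting, so it was a check of the code alone. Named genes were, per list, the 2 with the largest called change in each line and up to 2 called in opposite directions in the 2 lines, and per member the 2 genes of nearest profile. A gene that this rule named is not reported here. The members and lists were chosen with earlier results of these data known. Alternatives were another pseudocount (0.1), other filters (none, 2 FPKM), 3 scalings, no trend, a replicate block, a fit of the compared groups alone, a 2-fold rule and leaving out each library. Promoter windows were searched in Python 3.11.15.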

Additional observations from a re-analysis of the deposited data

Results flagged for a closer look

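The change between control and Flag-OGT libraries was compared between the lines by the limma test of that difference (MHCC-97H change minus MHCC-97L change, log2 scale). It called 6 of the 10 genes as more negative, beside 29.4% of all tested genes called more negative and 33.9% less negative. The difference was -0.95 for ETV5, -0.85 for ETV1, -0.81 for PHLDA1, -0.46 for DUSP4, -0.37 for SPRED1 and -0.34 for DUSP5, each with the larger fall in MHCC-97H. The calls of SPRED1 and DUSP5 were lost when some single libraries were left out.

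Among the other genes of the pathway, 7 were named because they rose in one line and fell in the other, and the difference passed the same test. It was 1.96 for MYC, 1.78 for DAB2IP, 1.73 for JUN, 0.96 for DUSP16, 0.72 for INSR and 0.61 for GAB1, which rose in MHCC-97H and fell in MHCC-97L. For RASAL2, which fell in MHCC-97H and rose in MHCC-97L, it was -0.51.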

How the results depend on the processing

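The 10 falls with Flag-OGT were called in both lines under every alternative run that tested the gene, except the 2-fold rule (SPRY2 in both lines, ETV1 in MHCC-97L). ETV1 was not tested with the 2 FPKM filter. In the difference between lines the 2-fold rule left 0 called more negative, and leaving out single libraries gave 0 to 1 called less negative and 4 to 6 more negative. ETV4 changed sign with a pseudocount of 0.1 (-0.35). Between the controls the 2-fold rule left 1 higher and 0 lower, and DUSP6 changed sign with a common sum (0.05) and median-of-ratios factors (0.07).

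Between the Flag-OGT groups the calls were least stable. Counts higher and lower were 0 and 0 with the 2-fold rule, 3 and 0 with a common sum, 2 and 1 with median-of-ratios factors, and 3 and 0 with quantile normalization. A pseudocount of 0.1 gave 2 higher, a fit of the compared groups alone 0 lower, and leaving out single libraries 0 to 2 lower. PHLDA1 changed sign with a common sum (0.03), median-of-ratios factors (0.01) and quantile normalization (0.08). Leaving out single libraries gave ranges with both signs for PHLDA1 (-0.15 to 0.03), SPRED1 (-0.07 up to 0.14) and SPRY4 (-0.02 up to 0.01; 0.00 without 97H_OGT replicate 1). The cause was not tested. A group left with 1 library is assumed to vary like the others.

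The main fit did not pair libraries by their shared replicate numbers. Deviations between replicates correlated across genes at -0.206 (97H with 97L) to 0.309 (97H with 97L_OGT) between groups. Whether some libraries shared processing was not tested. With a replicate block SPRY2 was called in the difference between lines (-0.39, limma, adjusted p = 0.0384), giving 7 more negative, no other call of the 10 genes changed, and DUSP2 was called (0.34, adjusted p = 0.0335). For the other named genes the same alternatives were added after seeing the data: ERF in MHCC-97H changed sign with median-of-ratios factors (-0.10), as did the MET difference between lines with a pseudocount of 0.1 (0.01). OGT in MHCC-97L was not called with a common sum (0.11) or median-of-ratios factors (0.02). Without a filter 14 ligand genes were tested, with 4 rises in each line, and with the 2 FPKM filter 1 rise in each. The depth is unknown, and 2 decimals limit values near 0.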

Other observations

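Relatives of the 10 genes outside the naming rule, chosen here after their values were seen, moved in both directions. Some MAP kinase phosphatases rose where DUSP4, DUSP5 and DUSP6 fell. DUSP9, which acts on ERK in the cytoplasm, went from a mean of 1.89 to 20.9 FPKM in MHCC-97H (2.93 on the log2 scale) and from 2.75 to 7.33 in MHCC-97L (1.15). DUSP7, its close relative, went from 7.91 to 23.8 and from 4.59 to 14.7 FPKM (1.48 and 1.49). DUSP10, which acts on p38 and JNK, fell by 1.04 and 1.29. SPRED2, the paralogue of SPRED1, fell by 2.27 and 1.41. SPRY1 fell by 0.53 in MHCC-97L and differed by -0.01 in MHCC-97H (limma, adjusted p = 0.849). CIC, the repressor of the PEA3 genes, was at a mean of 23.5 and 25.5 FPKM without and with Flag-OGT in MHCC-97H (0.11, adjusted p = 0.236) and fell by 0.59 in MHCC-97L (adjusted p = 1.0e-04).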
